A study of Mus musculus with 40 samples.

Results

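The matrix metalloproteinase genes that lie side by side on mouse chromosome 9 were followed in 40 RNA sequencing libraries of cardiac fibroblasts. The cluster was taken as 9 genes, chosen by name: *Mmp13*, *Mmp12*, *Mmp1b*, *Mmp3*, *Mmp1a*, *Mmp10*, *Mmp8*, *Mmp27* and *Mmp7*, in chromosomal order, out of 55414 genes in the count table. Of these, 8 passed the filter of 10 counts in total that left 25210 genes for testing, and *Mmp7* did not. The fibroblasts came from hearts of C57BL/6J mice homozygous for a TAK1 allele with loxP sites around exon 2 (TAK1 fl/fl), and were used at passage 1. Every culture received an adenovirus: Ad-CMV-iCre, which encodes Cre recombinase under the CMV promoter and deletes TAK1, or the control Ad-CMV-LacZ. After serum starvation, both kinds of culture received for 24 h either no ligand or 1 of 4: IL-1β at 15 ng/ml, bFGF at 20 ng/ml, and TNFα and TGFβ at 10 ng/ml each, which gave 10 groups with 4 replicates each. All cultures had been expanded in medium with bFGF and serum before starvation, so the groups without ligand are starved cells that had seen bFGF. Per a figure legend of the study, the 4 replicates of a group were male biological replicates.

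These enzymes are secreted as inactive proenzymes and degrade collagens and other proteins of the extracellular matrix. The stromelysins cleave many matrix proteins and activate other proenzymes, whereas the collagenases cut fibrillar collagen, the main component of scar. In many cell types their genes are induced by inflammatory cytokines through the transcription factors AP-1 and NF-κB. TAK1 is the kinase that couples IL-1 and TNF receptors to both of these factors.

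The cluster spans 427.1 kb, at chr9:7272514-7699585 of GRCm38. The sequences just upstream of 7 members, which differ in AP-1 motifs, are shown. Whether the motifs had a part in the response of these genes to the ligands was not tested. Each runs 5′ to 3′ from 120 bases before the annotated start to 20 bases after it (RefSeq, GRCm38.p6), and capitals mark matches to the AP-1 motif TGANTCA, the TATA box TATAAA and the ETS motif AGGAAG or its reverse complement.
Mmp3, chr9:7445702-7445841, plus strand: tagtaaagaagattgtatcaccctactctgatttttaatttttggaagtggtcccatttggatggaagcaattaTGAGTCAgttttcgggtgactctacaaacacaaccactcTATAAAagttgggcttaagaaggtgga
Mmp10, chr9:7502222-7502361, plus strand: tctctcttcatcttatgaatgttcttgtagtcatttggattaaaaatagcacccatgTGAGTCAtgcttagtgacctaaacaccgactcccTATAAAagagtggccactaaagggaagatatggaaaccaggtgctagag
Mmp13, chr9:7272394-7272533, plus strand: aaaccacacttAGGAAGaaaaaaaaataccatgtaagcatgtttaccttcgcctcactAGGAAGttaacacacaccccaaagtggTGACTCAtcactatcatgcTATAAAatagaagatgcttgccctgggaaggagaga
Mmp1b, chr9:7388007-7388146, minus strand: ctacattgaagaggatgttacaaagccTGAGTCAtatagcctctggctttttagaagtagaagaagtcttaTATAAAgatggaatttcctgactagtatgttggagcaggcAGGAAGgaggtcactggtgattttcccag
Mmp1a, chr9:7464021-7464160, plus strand: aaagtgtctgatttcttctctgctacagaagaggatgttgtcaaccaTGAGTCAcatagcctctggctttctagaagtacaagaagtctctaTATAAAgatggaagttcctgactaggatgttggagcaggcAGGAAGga
Mmp8, chr9:7558309-7558448, plus strand: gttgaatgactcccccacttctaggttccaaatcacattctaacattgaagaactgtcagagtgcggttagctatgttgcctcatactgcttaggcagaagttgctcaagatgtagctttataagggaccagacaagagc
Mmp27, chr9:7571276-7571415, plus strand: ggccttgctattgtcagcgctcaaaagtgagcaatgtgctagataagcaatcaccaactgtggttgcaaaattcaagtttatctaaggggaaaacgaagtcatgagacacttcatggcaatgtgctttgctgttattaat
The AP-1 motif (both strands searched) was present in a 300-base promoter of 7 of the 9 members, all but *Mmp8* and *Mmp27*. *Mmp12* and *Mmp7* have more than 1 promoter listed. Counted per promoter, the motif was in 7 of the 11 promoters of members and in 7.81% of the 32851 promoters in the table. Its first base lay at −46 from the start of *Mmp3*, −63 in *Mmp10*, −35 in *Mmp13*, −93 in *Mmp1b* and −73 in *Mmp1a*. The same 7 genes held a TATA box on the strand of the gene, in 7 of the 11 promoters, against 8.32% of all promoters. The ETS motif was found in 7 members (8 of the 11 promoters) and 35.4% of all promoters, the C/EBP motif TTGCNNAA in 6 members (6 of 11) and 10.8%, and the RUNX motif TGTGGT in 4 members (4 of 11) and 16.8%, each on either strand. No member held the NF-κB motif in this window, which 4.51% of all promoters did. The motifs can overlap each other, and a match here is a match of letters only. The promoters of *Mmp1a* and *Mmp1b* were identical at 74.8% of aligned positions, and those of *Mmp3* and *Mmp10* at 53.4%.

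*Mmp3* (ENSMUSG00000043613), which encodes stromelysin-1, was by far the most abundant member. Corrected for exon length, it had a mean of 1036 RPKM (reads scaled to exon length and library size) over the 40 libraries, against 2.27 for *Mmp13*, 1.77 for *Mmp10*, 1.40 for *Mmp27* and 1.09 for *Mmp8*. *Mmp12*, *Mmp1b* and *Mmp1a* were lower still, at 0.392, 0.387 and 0.239 RPKM. In every library *Mmp3* held between 94.9 and 99.6% of the counts of the whole cluster. Its share of all counts lay between 0.0181 and 0.933%, and in LacZ fibroblasts with IL-1β it ranked between 5 and 11 among all genes. *Mmp7* (matrilysin) had 3 counts in total, 2 in LacZ replicate 4 and 1 in iCre replicate 2, both with IL-1β, and 3 counts correspond to at most 0.118 CPM (counts scaled to library size). Statements on the cluster as a summed RNA are therefore statements on *Mmp3*, and the other members are described one by one.

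**Figure D1:**
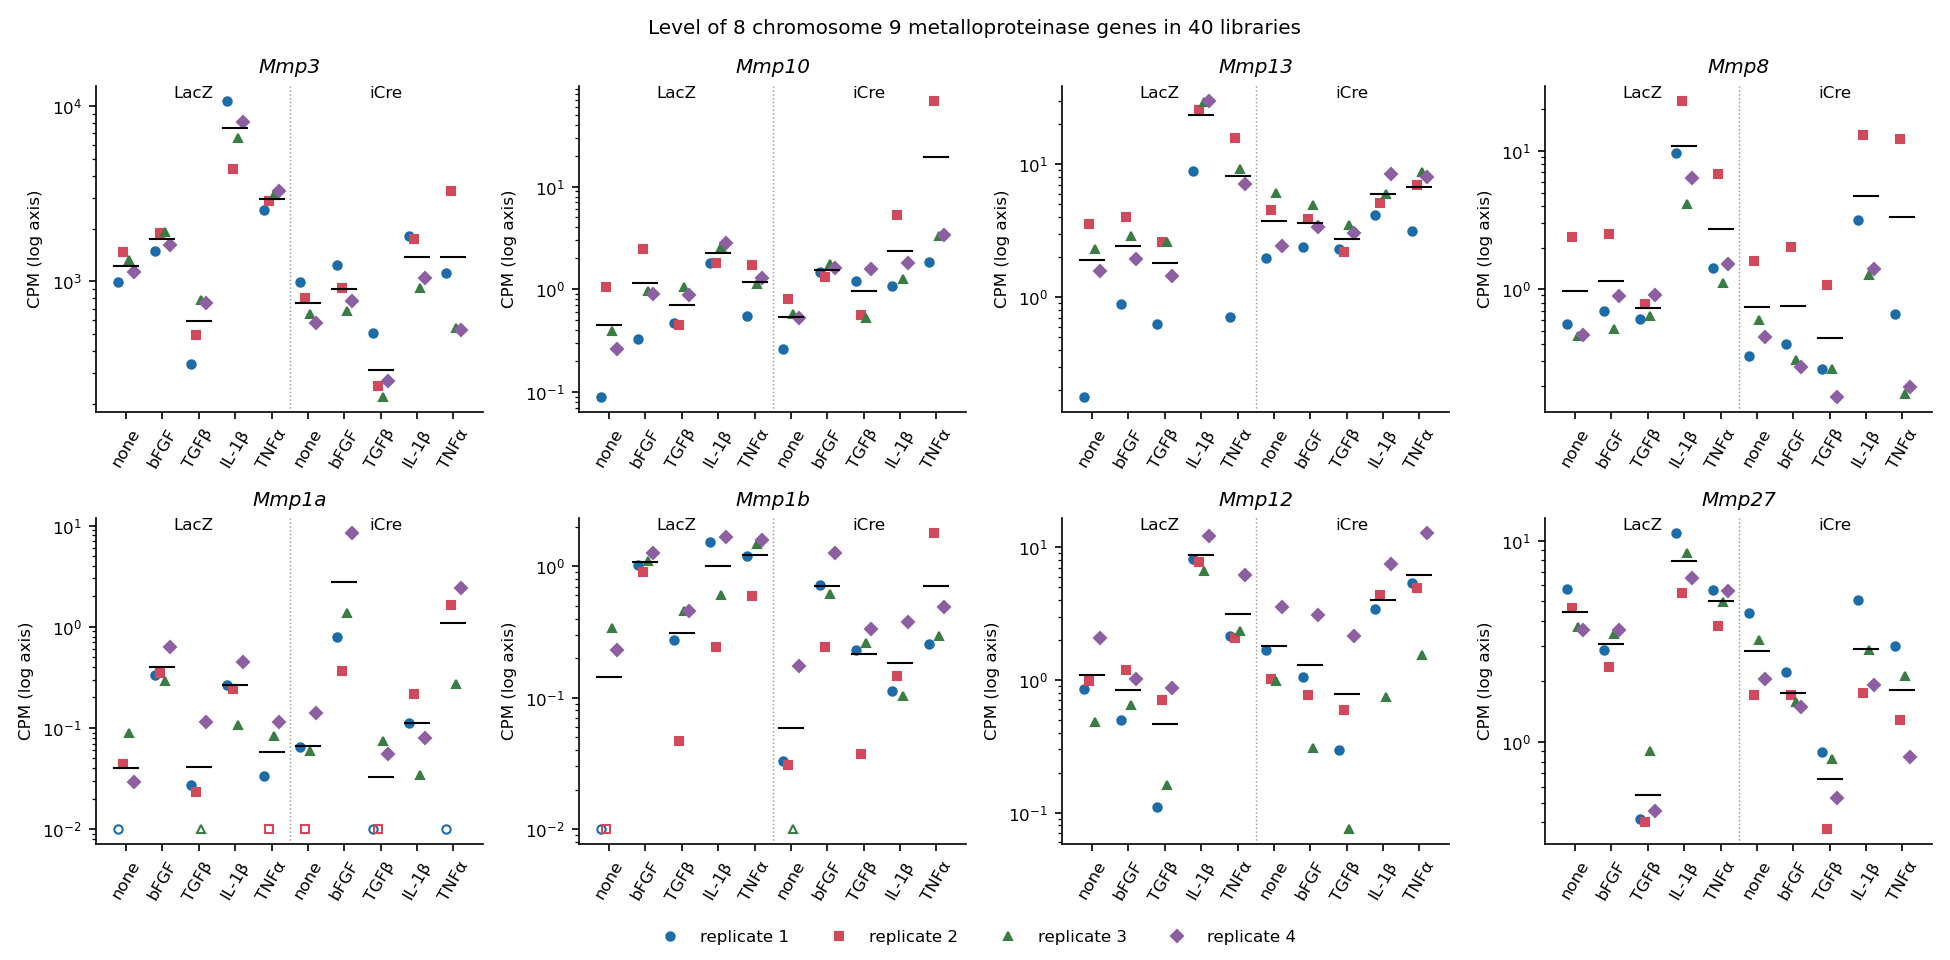
TMM-scaled CPM (log axis) of 8 metalloproteinase genes in the 40 libraries. Each point is 1 library, with a symbol for its replicate number, horizontal bars are group means (n = 4), and open symbols at the bottom of the axis are libraries with 0 counts. *Mmp3* lies between 220.1 and 10670 CPM, far above the other members.

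The libraries held between 25360947 and 66160732 counts, with a median of 36183962. *Map3k7*, the gene of TAK1, was at 144 to 251 CPM in the LacZ and 122 to 160.2 CPM in the iCre libraries, and within each ligand condition the 4 LacZ libraries were all above the 4 iCre libraries. Its counts include every exon, and reads from the allele that lost exon 2 are among them. All 10 fibroblast markers examined were detected, at a summed 15400 to 69700 CPM. The 12 macrophage markers summed to 19.8 to 213 CPM, the 4 endothelial markers to 0.814 to 13.5 CPM, the 3 pericyte markers to 61.3 to 1370 CPM and the 4 cardiomyocyte markers to 0.57 to 111 CPM. The pericyte sum was mainly *Rgs5*, at 60.4 to 1370 CPM, against at most 5.73 CPM for *Kcnj8* and 11.6 CPM for *Abcc9*. The high cardiomyocyte sums were mainly *Tnnt2*, which reached 110 CPM. *Myh6*, *Actc1* and *Ryr2* were at most 0.0356, 0.0887 and 1.62 CPM. Shifts in these sums are therefore mostly shifts of single genes and do not measure cell numbers. Of 8 neutrophil markers, *S100a9* was at 0 in every library.

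IL-1β raised most of the cluster in LacZ fibroblasts. Of the 8 members tested, 7 rose in edgeR's quasi-likelihood test with Benjamini-Hochberg adjustment over all genes (adjusted p at most 0.05), against 11.1% of the 25210 genes tested, and none fell. The median log2 fold change of the members was 2.70, against −0.10 for all genes tested. All 4 ligands were compared with the same 4 LacZ libraries without ligand, so their results are not independent of each other.

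Among the stromelysins, *Mmp3* was at 990, 1470, 1328 and 1135 CPM in replicates 1 to 4 without ligand and at 10670, 4380, 6563 and 8098 CPM with IL-1β. The lowest library with IL-1β was above the highest without it. The increase was 6.1-fold, or 2.61 on the log2 scale (standard error, SE, 0.28, adjusted p = 0.000185). *Mmp10*, which encodes stromelysin-2 and shares 140 exonic words of 50 bases with *Mmp3* (7.99% of the *Mmp3* exons), was at 0.0893, 1.05, 0.390 and 0.262 CPM without ligand and at 1.82, 1.82, 2.6 and 2.79 CPM with IL-1β. These groups did not overlap either, and the log2 change was 2.34 (SE 0.56, adjusted p = 0.0147). It was 3.24 without replicate 2 (adjusted p = 0.000362), and the call was lost without replicate 3 or 4 (adjusted p = 0.105 and 0.106). Since *Mmp3* had 2728345 counts in all libraries together against 4978 for *Mmp10*, and the handling of reads that match both genes is not given in the sources used here, the level of *Mmp10* is uncertain.

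The collagenase genes *Mmp13* and *Mmp8* had larger fold changes than the stromelysin genes, from low levels. *Mmp13* (collagenase-3) was at 0.179, 3.56, 2.31 and 1.57 CPM without ligand and at 8.87, 25.6, 29.4 and 30.0 CPM with IL-1β. Replicate 1 was the lowest of both groups, and the groups did not overlap. The increase was 12.4-fold (log2 3.63, SE 0.65, adjusted p = 0.00334). *Mmp8* (collagenase-2, first known from neutrophils) went from 0.558, 2.39, 0.461 and 0.465 CPM to 9.73, 23.1, 4.17 and 6.33 CPM. Replicate 2 was the highest in both groups, and the rise was 11.3-fold (log2 3.50, SE 0.68, adjusted p = 0.00526).

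Markers of other cell types also moved with IL-1β in these libraries. The summed level of the neutrophil markers was 0.268 to 0.483 CPM in LacZ fibroblasts without ligand and 10.1 to 14.1 CPM with IL-1β, where 6 of the 8 markers were detected. *Camp* alone reached 12.7 CPM. *S100a8* was at 0.662, 0.353, 0.961 and 1.2 CPM with IL-1β against at most 0.022 CPM without, and *S100a9* and *Ly6g* were at 0 in all 4 libraries with IL-1β. The cardiomyocyte sum, mainly *Tnnt2* at its higher levels, went from 111, 14.7, 43.8 and 28.7 CPM to 1.46, 0.57, 1.89 and 0.848 CPM, without overlap. The pericyte markers were higher with IL-1β in all 4 pairs, at 587, 244, 761 and 750 CPM against 297, 91.5, 541 and 415 CPM, and so were the fibroblast markers, at 36600 to 69700 against 30400 to 47700 CPM. Their part in the levels of the members was not tested. In bulk RNA, fewer cells of a type and less RNA per cell cannot be told apart.

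*Mmp1a* and *Mmp1b*, the mouse counterparts of the human interstitial collagenase gene, were barely detected without ligand, with 8 and 27 counts over the 4 LacZ libraries. *Mmp1a*, a polymorphic pseudogene in the GENCODE M21 annotation, was at 0, 0.0439, 0.0887 and 0.029 CPM without ligand and at 0.265, 0.244, 0.107 and 0.449 CPM with IL-1β. The log2 change was 2.59 (SE 0.75, adjusted p = 0.0338). It was 3.59 without replicate 3 (adjusted p = 0.0362), and the call was lost without replicate 1, 2 or 4 (0.0957, 0.0637 and 0.215). *Mmp1b* was at 0, 0, 0.337 and 0.232 CPM without ligand and at 1.52, 0.244, 0.605 and 1.67 CPM with IL-1β. These groups overlapped, although each of the 4 same-numbered pairs was higher with IL-1β. The log2 fold change of *Mmp1b* was 2.79 (SE 0.98), with an adjusted p of 0.0719 without and 7.45e-05 with a replicate block, a term in the fit for the replicate number, and of 0.022 without replicate 2. With that block all 8 members rose, against 16.3% of all genes tested. The 2 genes share 165 exonic words of 50 bases, 8.15% of *Mmp1a* and 11.8% of *Mmp1b*, and *Mmp1b* overlaps *Mmp12* on the opposite strand over 157 exonic bases.

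*Mmp12*, which encodes macrophage elastase, was at 0.848, 0.988, 0.479 and 2.06 CPM without ligand and at 8.18, 7.82, 6.62 and 12.2 CPM with IL-1β. Replicate 4 was the highest of both groups, and the groups did not overlap. The rise was 8.14-fold (log2 3.02, SE 0.40, adjusted p = 0.000707). The 12 macrophage markers summed to 62.2 to 194 CPM without ligand and to 57.3 to 213 CPM with IL-1β, and these ranges overlapped. *Mmp27*, the least studied member, changed least, from 5.74, 4.61, 3.74 and 3.6 CPM to 10.9, 5.48, 8.65 and 6.56 CPM. All 4 same-numbered pairs were higher with IL-1β, with a log2 change of 0.85 (SE 0.24, adjusted p = 0.0296), and the call was lost without replicate 3 or 4 (adjusted p = 0.175 and 0.109).

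TAK1 deletion lowered part of this response. With IL-1β, 4 of the 8 members tested were lower in iCre than in LacZ fibroblasts, against 8.98% of all genes tested, and none was higher. With the replicate block 6 were lower, against 14.9% of all genes tested. The median log2 difference of the members was −1.36, against 0.04 for all genes tested.

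*Mmp3* reached only 1807, 1739, 918 and 1050 CPM in iCre fibroblasts with IL-1β. All 4 libraries were below the lowest LacZ library with the ligand, and the difference was −2.45 on the log2 scale (SE 0.33, adjusted p = 0.000779), or 5.47-fold lower. *Mmp13* was at 4.15, 5.15, 5.99 and 8.51 CPM, again below every LacZ library, with a log2 difference of −1.99 (SE 0.35, adjusted p = 0.00384). *Mmp27* was at 5.05, 1.76, 2.85 and 1.93 CPM and did not overlap the LacZ libraries, with a log2 difference of −1.46 (SE 0.35, adjusted p = 0.0183). *Mmp1b* was at 0.112, 0.145, 0.103 and 0.375 CPM and was lower in all 4 pairs, by −2.52 on the log2 scale (SE 0.66, adjusted p = 0.0255), with an overlap between the groups.

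*Mmp8* and *Mmp12* overlapped between the viruses but were lower in iCre in each of the 4 same-numbered pairs. *Mmp8* in iCre fibroblasts with IL-1β was at 3.16, 13, 1.27 and 1.39 CPM, and its log2 difference of −1.22 had an adjusted p of 0.322, whereas with the replicate block it was −1.54 with an adjusted p of 1.26e-06, and without replicate 2 −1.78 (adjusted p = 0.00861). *Mmp12* was at 3.4, 4.36, 0.738 and 7.52 CPM, with a log2 difference of −1.15 (adjusted p = 0.167) and of −1.38 with the block (adjusted p = 0.000296). The summed neutrophil markers were 1.02 to 1.66 CPM in these iCre libraries against 10.1 to 14.1 CPM in LacZ, and the macrophage markers 39.6 to 136 CPM against 57.3 to 213 CPM. The cardiomyocyte markers were higher in iCre, at 2.24 to 16.2 against 0.57 to 1.89 CPM, and the fibroblast markers lower, at 22800 to 35700 against 36600 to 69700 CPM. Their part in the difference was not tested. *Mmp10* was at 1.08, 5.29, 1.25 and 1.79 CPM in iCre cells, lower than LacZ in 3 of the 4 pairs, and replicate 2 was higher. Its log2 difference was 0.04 (SE 0.47, adjusted p = 0.983) with all replicates and −0.80 (adjusted p = 0.103) without replicate 2, so the value near 0 rests on that pair. The calls of *Mmp27* and *Mmp1b* were lost without replicate 3 (adjusted p = 0.121 and 0.108) or 4 (0.0751 and 0.0505), and that of *Mmp1b* without replicate 1 (0.14).

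**Figure D2:**
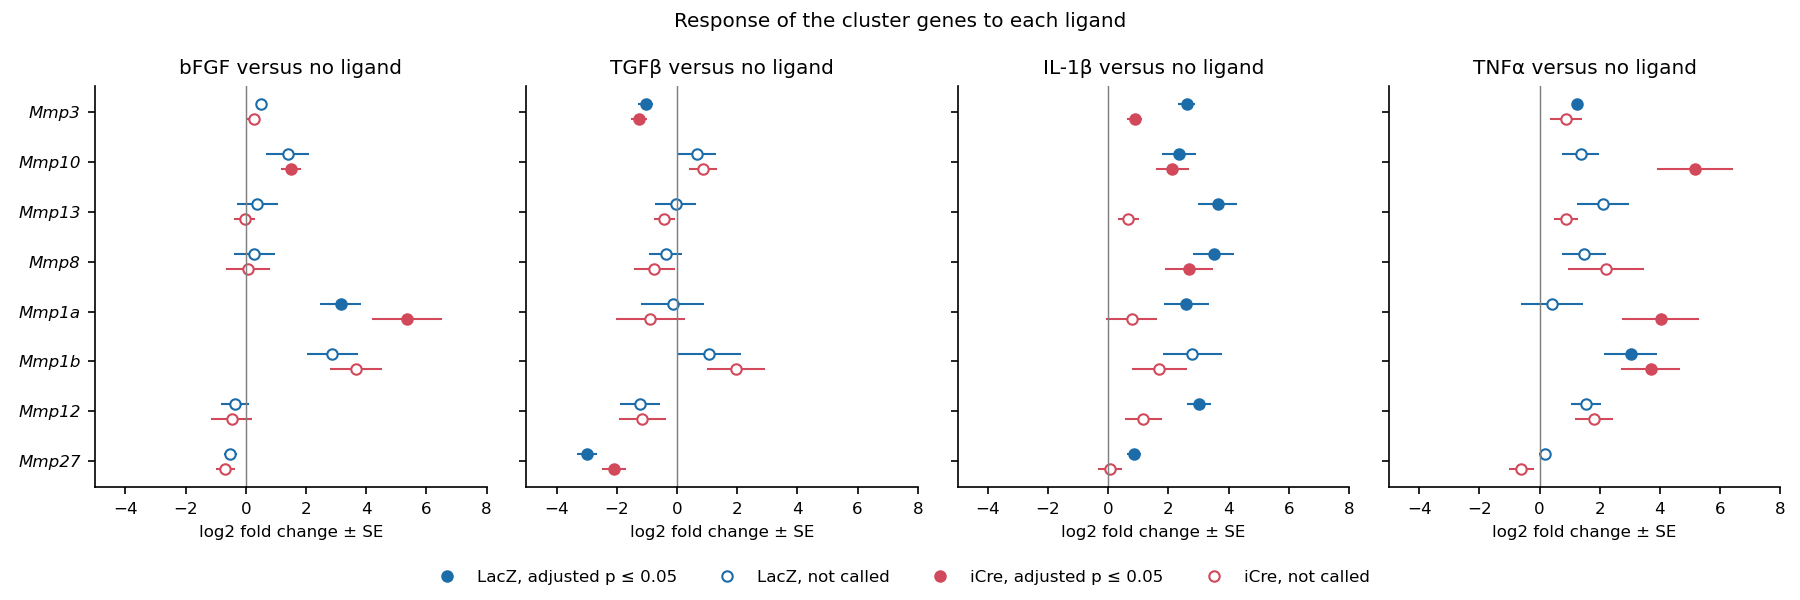
Log2 fold change of 8 metalloproteinase genes for each ligand against no ligand, in LacZ (blue) and iCre (red) fibroblasts. Points are estimates from edgeR, bars are standard errors (n = 4 libraries per group), and filled points passed an adjusted p of 0.05. For IL-1β the LacZ points of *Mmp3* and *Mmp13* lie well to the right of the iCre points, and for TNFα the iCre points of *Mmp10* and *Mmp1a* lie to the right.

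Within iCre fibroblasts, IL-1β still raised 3 members, against 9.38% of all genes tested, and 5 with the replicate block, against 18.1%. *Mmp10* rose by 2.13 on the log2 scale (adjusted p = 0.0253), *Mmp8* by 2.68 (adjusted p = 0.0479) and *Mmp3* by 0.88 (adjusted p = 0.0369). *Mmp3* went from 993, 802, 649 and 583 CPM without ligand to the values given above, and was higher in all 4 pairs. With no block, its call was lost in each fit without 1 replicate (adjusted p from 0.0656 to 0.0966), and those of *Mmp8* and *Mmp10* without replicate 1 (0.164 and 0.0603), 3 (0.104 and 0.0752) or 4 (0.103 and 0.0972). Without replicate 2 the rise of *Mmp8* was 2.08 (0.00781). With the block and all replicates, the adjusted p was 8.19e-21 for *Mmp3*, 1.09e-18 for *Mmp8* and 2.51e-11 for *Mmp10*. *Mmp12* and *Mmp13* were the genes added by the block, at 1.02 on the log2 scale (adjusted p = 3.05e-06) and at 0.71 (adjusted p = 4.23e-05). In these iCre libraries the neutrophil markers went from 0.0306 to 0.229 CPM without ligand to 1.02 to 1.66 CPM with IL-1β, the cardiomyocyte markers were lower in all 4 pairs, at 2.24 to 16.2 against 7.07 to 44.4 CPM, and the macrophage markers higher in all 4, at 39.6 to 136 against 33.1 to 100 CPM. What part these markers had in the members' levels was not tested.

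Whether the effect of IL-1β differed between the viruses was tested as an interaction over 16 libraries. All 8 estimates were below 0, with a median of −1.41, against 0.08 for all genes tested, and 2 members passed the threshold, against 4.95% of all genes tested that were lower. The interaction was −1.74 for *Mmp3* (SE 0.38, adjusted p = 0.00913) and −2.98 for *Mmp13* (SE 0.80, adjusted p = 0.03). With the replicate block 5 passed, against 8.98%, with *Mmp12* (−2.11, adjusted p = 0.00157), *Mmp8* (−1.30, adjusted p = 0.0281) and *Mmp27* (−0.80, adjusted p = 0.0323) added. With the block and a GC correction 3 passed, and *Mmp8* (adjusted p = 0.0784) and *Mmp27* (−0.54, adjusted p = 0.2) did not. With the block alone, the adjusted p was 0.000535 for *Mmp3* and 0.0002 for *Mmp13*. With no block, the call of *Mmp3* was lost without replicate 1, 3 or 4 (adjusted p = 0.0617, 0.0764 and 0.0846), and that of *Mmp13* without replicate 3 or 4 (0.271 and 0.137). For *Mmp10* the estimate was −0.22 with a SE of 0.83 and −1.69 without replicate 2 (adjusted p = 0.126), where that of *Mmp3* was −2.13 in the same fit.

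With TNFα all 8 estimates were above 0 in LacZ fibroblasts, and 2 members passed the test, against 10.9% of all genes, and 6 with the replicate block, against 17.2%. *Mmp3* was at 2561, 2866, 3087 and 3276 CPM, all above the libraries without ligand, a 2.4-fold increase (log2 1.26, SE 0.14, adjusted p = 0.000279). *Mmp1b* was at 1.19, 0.594, 1.47 and 1.59 CPM, above all libraries without ligand, and rose by 3.03 on the log2 scale (SE 0.88, adjusted p = 0.035). *Mmp13* was at 0.712, 15.8, 9.18 and 7.16 CPM, with replicate 1 far below the others and within the range without ligand. Its log2 fold change of 2.11 had an adjusted p of 0.117 without and 4.45e-10 with the block, and it passed without replicate 1 (2.12, adjusted p = 0.00981). *Mmp12* (1.54, adjusted p = 0.0543), *Mmp8* (1.49, adjusted p = 0.191) and *Mmp10* (1.37, adjusted p = 0.156) passed with the block, at adjusted p of 5.21e-06, 8.59e-06 and 0.00089. *Mmp12* also passed in DESeq2 (adjusted p = 0.00962), with edgeR's filterByExpr (0.0479) and without replicate 4 (0.0284), and *Mmp8* and *Mmp10* passed without replicate 2 (0.00674 and 0.0235). The call of *Mmp1b* was lost without replicate 1, 3 or 4 (adjusted p = 0.0916, 0.069 and 0.133). *Mmp27* was at 5.66, 3.77, 4.95 and 5.64 CPM, within the spread of the libraries without ligand. Marker sums moved with TNFα as well: in LacZ fibroblasts the neutrophil markers were at 1.59 to 2.51 CPM with it against 0.268 to 0.483 CPM without, the cardiomyocyte markers at 1.01 to 6.65 against 14.7 to 111 CPM, and the pericyte markers were lower in each pair, at 61.3 to 355 against 91.5 to 541 CPM. The fibroblast markers were also lower in each pair, at 25800 to 34600 against 30400 to 47700 CPM. The part of these markers in the levels of the members was not tested.

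IL-1β and TNFα were also compared directly in LacZ fibroblasts. *Mmp3* was higher with IL-1β by 1.33 (SE 0.25, adjusted p = 0.00693) and *Mmp12* by 1.46 (SE 0.36, adjusted p = 0.0286) on the log2 scale. These were the 2 members called, against 4.84% of all genes tested, and with the block 6 were higher with IL-1β, against 12%. The block added *Mmp8* (log2 2.08, adjusted p = 2.11e-12), *Mmp13* (1.71, 2.93e-08), *Mmp10* (0.98, 0.00131) and *Mmp27* (0.63, 0.000177). These also passed with no block when 1 replicate was left out, *Mmp13* without replicate 1 (0.0151) and *Mmp8*, *Mmp10* and *Mmp27* without replicate 2 (0.000373, 0.0299 and 0.0394). Without the block, the call of *Mmp3* was lost without replicate 3 or 4 (adjusted p = 0.0584 and 0.0506) and that of *Mmp12* without replicate 1 or 3 (0.12 and 0.138). *Mmp1b* was among the members not called, with a log2 difference of −0.26 (SE 0.54, adjusted p = 0.859). The neutrophil, pericyte and fibroblast marker sums were higher with IL-1β than with TNFα in all 4 pairs, and the cardiomyocyte sums lower. The macrophage sums were also higher in all 4 pairs, at 57.3 to 213 against 49.3 to 195 CPM. The part of these markers was not tested.

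With TNFα, the members differed between the viruses in both directions, and the tally turned on 1 library. Of the 8 members tested, *Mmp10* and *Mmp1a* were higher in iCre than in LacZ, against 14.8% of all genes tested, and *Mmp27* was lower, against 12.6%. With the block *Mmp3* was lower as well, against 15.1% of all genes, and the same 2 were higher, against 17.1%. Without replicate 2 of iCre with TNFα, 4 members were lower (*Mmp3*, *Mmp8*, *Mmp1b* and *Mmp27*), against 11.8% of all genes, and only *Mmp10* was higher, against 13%. *Mmp10* was at 0.543, 1.71, 1.13 and 1.29 CPM in LacZ libraries, against 1.86, 68.5, 3.33 and 3.34 CPM in iCre fibroblasts. The groups did not overlap, but replicate 2 of iCre was far above the other 3. The log2 difference was 4.06 (SE 1.18, adjusted p = 0.0286) with all libraries and 1.3 (adjusted p = 0.0326) without that library, so that its size, though not its direction, rests on it. Without replicate 3 or 4 of both viruses the adjusted p was 0.0755 and 0.0684.

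*Mmp1a* was at 0.0339, 0, 0.0829 and 0.114 CPM in LacZ libraries, against 0, 1.64, 0.273 and 2.4 CPM in iCre libraries with TNFα. The lowest iCre library had no counts, and 3 of 4 pairs were higher in iCre. The log2 difference was 4.14 (SE 1.3, adjusted p = 0.0398), and without replicate 2 of iCre it was 3.84 (adjusted p = 0.0705). Without replicate 3 or 4 of both viruses its adjusted p was 0.0977 and 0.155. *Mmp27*, at 3.0, 1.28, 2.14 and 0.843 CPM in iCre, was lower than in every LacZ library, by −1.43 on the log2 scale (SE 0.36, adjusted p = 0.0152), and this call was lost without replicate 3 or 4 (adjusted p = 0.076 and 0.0653).

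*Mmp3* in iCre fibroblasts with TNFα was at 1123, 3284, 545 and 527 CPM. In 3 of the 4 libraries it lay below all LacZ libraries, and replicate 2 lay above them. The log2 difference of −1.08 had an adjusted p of 0.166, with the block it was −1.54 (adjusted p = 0.024), and without that library −1.99 (adjusted p = 0.00118). *Mmp8* was at 1.42, 6.82, 1.11 and 1.52 CPM in LacZ libraries, against 0.661, 12.3, 0.175 and 0.195 CPM in iCre, so that 3 pairs were lower and the pair of replicate 2 was higher in iCre. Its log2 difference was 0.32 (adjusted p = 0.894) with all libraries and −2.94 (adjusted p = 0.024) without the library in question. The summed neutrophil markers were at 0.156 to 0.856 CPM in these iCre libraries against 1.59 to 2.51 CPM in LacZ, and the fibroblast markers at 15400 to 23400 against 25800 to 34600 CPM. The pericyte markers were higher in iCre in all 4 pairs, at 1070, 272, 1010 and 575 CPM against 133, 61.3, 355 and 228 CPM, and so were the endothelial markers. Their part in the differences between the viruses was not tested. *Mmp1b* followed the same split, at 0.254, 1.78, 0.292 and 0.486 CPM in iCre, with a log2 difference of −0.76 (adjusted p = 0.408) that became −1.81 (adjusted p = 0.0152) without it. *Mmp12*, at 2.14, 2.06, 2.32 and 6.14 CPM in LacZ libraries against 5.42, 4.97, 1.54 and 12.8 CPM in iCre, was not called (log2 difference 0.98, adjusted p = 0.253) but passed with the block and GC correction (1.32, adjusted p = 0.0081).

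Replicate 2 of iCre with TNFα thus had the highest *Mmp3*, *Mmp8*, *Mmp10* and *Mmp1b* of its group. Its mean correlation with the other libraries of its group was 0.962, and the replicate 2 libraries of the other groups had 0.951 to 0.974. Its endothelial markers summed to 13.2 CPM against 2.42 to 6.19 CPM in the other 3 libraries, and its pericyte markers to 272 CPM against 575 to 1070 CPM. Their part in these levels was not tested.

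**Figure D3:**
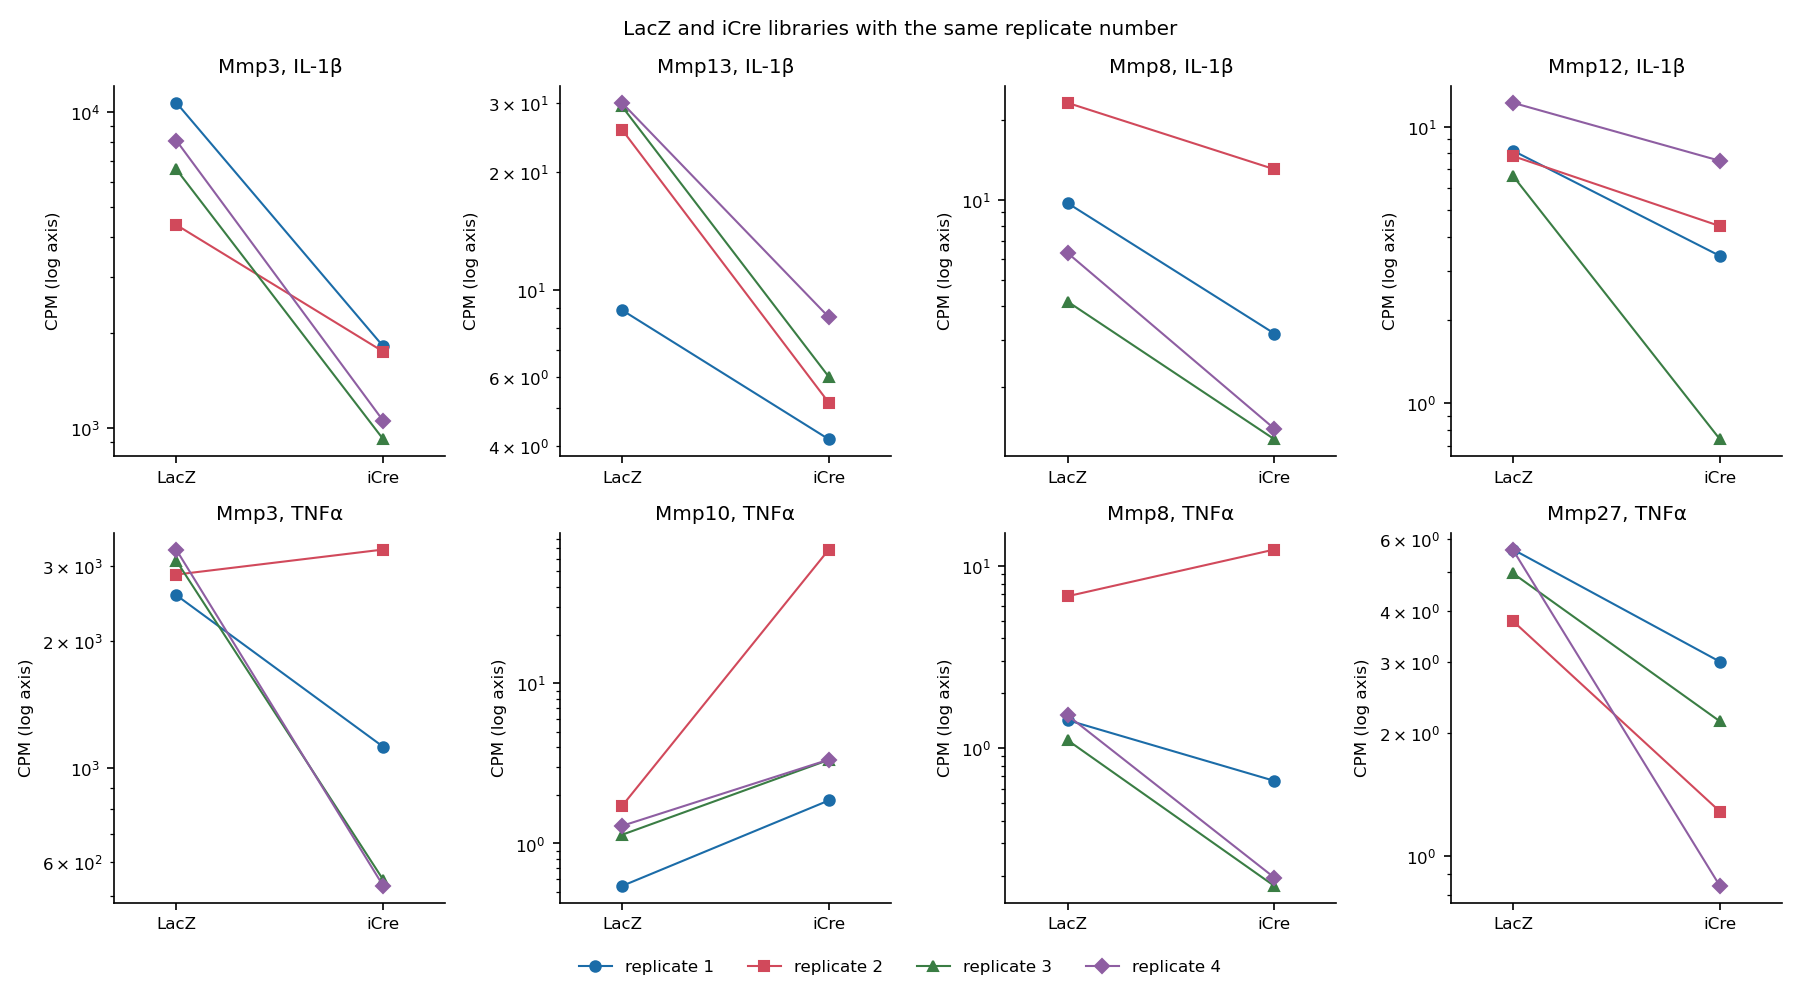
CPM (log axis) in LacZ and iCre libraries, with a line for each same-numbered pair, for 4 genes with IL-1β (top) and 4 with TNFα (bottom). With IL-1β every line falls, and with TNFα the line of replicate 2 rises for *Mmp3* and *Mmp8* while the other 3 fall.

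Within iCre fibroblasts, TNFα raised 3 members, against 14.7% of all genes tested. *Mmp10* rose from 0.262, 0.796, 0.578 and 0.521 CPM by 5.17 on the log2 scale (adjusted p = 0.0124), and by 2.40 without replicate 2 of iCre with TNFα (adjusted p = 0.00205). *Mmp1b* rose by 3.69 (adjusted p = 0.0203) and *Mmp1a* by 4.02 (adjusted p = 0.0423), and without that library their adjusted p were 0.0516 and 0.0727. The call of *Mmp1a* was also lost without replicate 3 or 4 (0.116 and 0.149), and that of *Mmp1b* without replicate 3 (0.0583). With the replicate block 5 members rose, against 18.9%, with *Mmp12* (log2 1.67, adjusted p = 0.000364) and *Mmp13* (0.90, adjusted p = 0.00525) added, and *Mmp27* fell (−0.64, adjusted p = 0.0287), against 17.3%, a call lost with the block and GC correction (−0.40, adjusted p = 0.162). The fibroblast markers were lower with TNFα in all 4 iCre pairs, at 15400 to 23400 against 20800 to 37000 CPM, as were the cardiomyocyte markers, at 0.833 to 20.2 against 7.07 to 44.4 CPM, and the macrophage markers were higher in all 4, at 39.6 to 138 against 33.1 to 100 CPM. What part these markers had in the members' levels was not tested. No member passed the test for a different effect of TNFα in the 2 kinds of culture, against 16.1% of all genes, or 25.1% with the block, and 1 had an unadjusted p under 0.05, against 27.5% of all genes. DESeq2 gave no adjusted p for *Mmp8* and *Mmp10*, and none of the other 6 passed in it. Without replicate 2 of iCre with TNFα, the interaction of *Mmp3* was −1.29 (adjusted p = 0.0178).

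TGFβ lowered *Mmp3* and *Mmp27* with both viruses. In LacZ fibroblasts these were the only members that fell, against 19.3% of all genes tested, and none rose. Without replicate 2, *Mmp10* was called higher (log2 1.65, adjusted p = 0.0334), against 0.67 (adjusted p = 0.436) with all replicates. *Mmp27* went from the values without ligand given above to 0.414, 0.4, 0.908 and 0.455 CPM, all well below them. The decrease was 7.97-fold (log2 −2.99, SE 0.32, adjusted p = 5.45e-05). *Mmp3* fell to 337, 497, 782 and 758 CPM, again below every library without ligand, by −1.04 on the log2 scale (SE 0.24, adjusted p = 0.00709). *Mmp12*, at 0.11, 0.706, 0.16 and 0.871 CPM, was lower in all 4 pairs and passed with the block (log2 −1.36, adjusted p = 0.0152), which lowered 3 members against 22.5% of all genes. The summed macrophage markers were also lower with TGFβ in each pair, at 51.6, 28.5, 50.9 and 114 CPM against 128, 62.2, 87.2 and 194 CPM, whereas the pericyte markers were higher in each pair, at 389 to 938 against 91.5 to 541 CPM. The cardiomyocyte markers were lower without overlap, at 3.1 to 14.5 against 14.7 to 111 CPM, the fibroblast markers higher without overlap, at 57200 to 66600 against 30400 to 47700 CPM, and the endothelial markers lower in each pair. Their part in the levels of the members was not tested.

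In iCre fibroblasts with TGFβ, the same 2 genes fell, against 18.8% of all genes tested. *Mmp27* went from 4.35, 1.71, 3.21 and 2.05 CPM to 0.893, 0.37, 0.824 and 0.525 CPM, without overlap, by −2.09 on the log2 scale (SE 0.40, adjusted p = 0.00176). *Mmp3* went to 511, 254, 220.1 and 272 CPM, also without overlap, by −1.25 (SE 0.27, adjusted p = 0.00394). *Mmp12* again passed with the block (log2 −1.54, adjusted p = 0.008), against 21.1% of all genes that fell, and the macrophage markers were again lower in all 4 pairs, at 19.8 to 74.6 CPM with TGFβ, as were the cardiomyocyte markers, while the fibroblast markers were higher without overlap, at 46900 to 61800 against 20800 to 37000 CPM. No interaction of TGFβ with the virus was called for any member, with or without the block, nor in DESeq2 for the 6 members that it gave an adjusted p (all but *Mmp1a* and *Mmp1b*), and 4.51% of all genes were called in that test, or 8.04% with the block. No member had an unadjusted p under 0.05 for it, against 15.2% of all genes. The interaction of bFGF likewise called no member, and 0% of all genes, with 0 members at an unadjusted p under 0.05, against 3.03% of all genes, and 0 in DESeq2.

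bFGF, a mitogen of fibroblasts, raised *Mmp1a* with both viruses. In LacZ fibroblasts *Mmp1a* was at 0.33, 0.352, 0.291 and 0.628 CPM, above all libraries without ligand, and was the only member called (log2 3.15, SE 0.67, adjusted p = 0.0155), against 7.0% of all genes that rose. This call was lost without replicate 3 (4.03, adjusted p = 0.0603) or 4 (2.75, adjusted p = 0.13). *Mmp1b* was at 1.02, 0.906, 1.1 and 1.26 CPM and did not overlap the libraries without ligand, and its log2 change was 2.88 (adjusted p = 0.0588, blocked 0.000708). *Mmp3* was at 1491, 1897, 1921 and 1622 CPM, also above every library without ligand, and its log2 change was 0.51 (adjusted p = 0.055, blocked 2.66e-05). With the block *Mmp10* was also called (log2 1.45, adjusted p = 0.000901), so that 4 members rose, against 14.2% of all genes. Without replicate 2, *Mmp1b* (2.52, adjusted p = 0.0296) and *Mmp3* (0.54, adjusted p = 0.016) passed with no block. *Mmp27* went the other way, at 2.87, 2.37, 3.43 and 3.59 CPM, below all libraries without ligand, with a log2 change of −0.51 (adjusted p = 0.17, blocked 0.0553), and passed with the block and GC correction (−0.58, adjusted p = 0.0277). In these LacZ libraries 3 marker sums were lower with bFGF in each pair: fibroblast markers at 22800 to 31200 against 30400 to 47700 CPM, macrophage markers at 45.7 to 137 against 62.2 to 194 CPM, and cardiomyocyte markers at 1.13 to 30 against 14.7 to 111 CPM. What part these markers had in the members' levels was not tested.

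In iCre fibroblasts bFGF raised *Mmp1a* and *Mmp10*, against 1.79% of all genes tested. *Mmp1a* was at 0.0655, 0, 0.0598 and 0.139 CPM without ligand and at 0.801, 0.365, 1.37 and 8.41 CPM with bFGF. Replicate 4 was far above the next library, and the increase was 5.35 on the log2 scale (SE 1.17, adjusted p = 0.0484). Without replicate 4 it was 4.17 (adjusted p = 0.135), and without replicate 1 or 3 the call was also lost (adjusted p = 0.181 and 0.317). *Mmp10* was at 1.49, 1.31, 1.77 and 1.6 CPM with bFGF, above all iCre libraries without ligand, and rose by 1.51 (SE 0.34, adjusted p = 0.0495), a call lost without replicate 1, 3 or 4 (adjusted p = 0.193, 0.395 and 0.288). *Mmp1b* was at 0.0327, 0.0306, 0 and 0.174 CPM without ligand and at 0.715, 0.243, 0.611 and 1.25 CPM with bFGF, with an adjusted p of 0.0604, and of 0.000282 with the block. It also passed without replicate 2 (3.81, adjusted p = 0.0136). With the block *Mmp3* was added (log2 0.26, adjusted p = 0.025) and 4 members rose, against 9.28% of all genes. With the block and GC correction that call of *Mmp3* was lost (0.21, adjusted p = 0.08), and *Mmp27* was called lower (−0.67, adjusted p = 0.0397). Macrophage and cardiomyocyte markers were again lower in each pair, at 22.4 to 73.6 against 33.1 to 100 CPM (macrophage) and 1.27 to 15.5 against 7.07 to 44.4 CPM (cardiomyocyte). Whether they had a part in these changes was not tested.

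Without ligand, with bFGF and with TGFβ, no member differed between iCre and LacZ fibroblasts in edgeR's test. At an unadjusted p under 0.05 there were 1, 3 and 1 of the 8 members in these comparisons, against 14, 10.3 and 21.2% of all genes. DESeq2 called 1, 3 and 1, against 5.34, 1.91 and 15% of all genes, without an adjusted p for *Mmp1a* and *Mmp1b* in the first and the last. Of all genes, 0.0754% were called without ligand, 0% with bFGF and 8.37% with TGFβ. With the replicate block the members called were 3, 4 and 1, against 6.79% of all genes higher and 7.7% lower without ligand, 6.64% and 7.22% with bFGF, and 11.1% lower with TGFβ. *Mmp3* was the member lower in iCre in all of these blocked fits, with log2 differences of −0.73 without ligand (adjusted p = 0.000628), −0.97 with bFGF (adjusted p = 6.26e-06) and −0.97 with TGFβ (adjusted p = 0.00549). *Mmp13* was higher in iCre with the block, by 1.18 without ligand (adjusted p = 0.013) and 0.68 with bFGF (adjusted p = 0.0332), the opposite direction to that with IL-1β. *Mmp27* was lower with the block, by −0.70 without ligand (adjusted p = 0.0167) and −0.79 with bFGF (adjusted p = 0.0137). *Mmp1a* was higher with bFGF and the block, by 2.04 (adjusted p = 0.00174). With the block and GC correction *Mmp12* without ligand (0.76, adjusted p = 0.0347) and *Mmp13* with TGFβ (1.06, adjusted p = 0.0133) were called higher as well. With TGFβ and no block, *Mmp3* passed without replicate 1 (−1.48, adjusted p = 0.00472) and *Mmp8* without replicate 2 (−1.69, adjusted p = 0.0386, against −0.77 with all replicates). The pericyte markers were higher in iCre in all 4 pairs without ligand, at 258 to 864 against 91.5 to 541 CPM, and with bFGF, at 210 to 1030 against 93.8 to 547 CPM, whereas the fibroblast and macrophage markers were lower in all 4 pairs of both. Without ligand the cardiomyocyte markers, at 7.07 to 44.4 against 14.7 to 111 CPM, and the neutrophil markers were lower in all 4 pairs as well. The part of these markers in the differences was not tested.

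The order of the 10 groups by their median separated the members further. The median of *Mmp3* was highest in LacZ with IL-1β (7331 CPM), followed by LacZ with TNFα (2977 CPM), LacZ with bFGF (1759 CPM) and iCre with IL-1β (1395 CPM), and lowest in iCre with TGFβ (263 CPM). Of its 9 neighbouring pairs in that order 7 overlapped, all but those between the first 3 groups. *Mmp10* had its highest median in iCre with TNFα (3.33 CPM) and its lowest in LacZ without ligand (0.326 CPM), with 8 of 9 neighbouring pairs overlapping. *Mmp8*, *Mmp12* and *Mmp13* were highest in LacZ with IL-1β, at medians of 8.03, 8 and 27.5 CPM, and all 9 neighbouring pairs overlapped for each of them. *Mmp27* was highest in LacZ with IL-1β (7.60 CPM) and lowest in LacZ with TGFβ (0.434 CPM). Replicate numbers had a level of their own: replicate 2 had the highest *Mmp8* in 9 of 10 groups, replicate 4 the highest *Mmp12* in 9 of 10, and replicate 1 the lowest *Mmp13* in 9 of 10. The endothelial markers were highest in replicate 2 in all 10 groups, and the macrophage markers were highest in replicate 4 in all 5 LacZ groups. In iCre the macrophage markers were highest in replicate 1 without ligand and with bFGF, IL-1β and TNFα, and in replicate 4 with TGFβ. The part of these markers in the members' levels was not tested.

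Some genes that flank the cluster moved with IL-1β too. Of 13 neighbours listed, 10 were tested, and in LacZ fibroblasts 4 rose and 1 fell, against 11.1% of all genes that rose and 9.55% that fell, with a median log2 fold change of 0.08. With the replicate block 4 rose and 2 fell, with *Dync2h1* added, against 16.3% and 17.3% of all genes. *Birc3*, an inhibitor of apoptosis that is a known NF-κB target, rose from 20.5 ± 1.83 to 97.0 ± 13.8 CPM (SD, n = 4), by 2.25 on the log2 scale (adjusted p = 3.23e-06). *Birc2* rose by 1.16, *Tmem123* by 0.69 and *Yap1*, a transcriptional coactivator, by 0.31, while *Pdgfd*, a growth factor gene, fell by 1.21. *Dcun1d5*, the gene next to *Mmp13*, had a log2 change of 0.15 (adjusted p = 0.229) with IL-1β in LacZ and was lower in iCre than in LacZ with IL-1β, by −0.71 (adjusted p = 0.000394), with an interaction of −0.53 (adjusted p = 0.00946). With IL-1β, 5 of the 10 were lower in iCre than in LacZ fibroblasts, against 8.98% of all genes, and none was higher, against 7.14%, and with the block it was again 5 and none, against 14.9% and 14.6%. *Birc2* had a log2 difference of −1.06 (adjusted p = 0.00046) and *Birc3* of −0.80 (adjusted p = 0.00554). *Mmp20*, which lies inside the cluster, had 0 counts in all libraries.

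**Figure D4:**
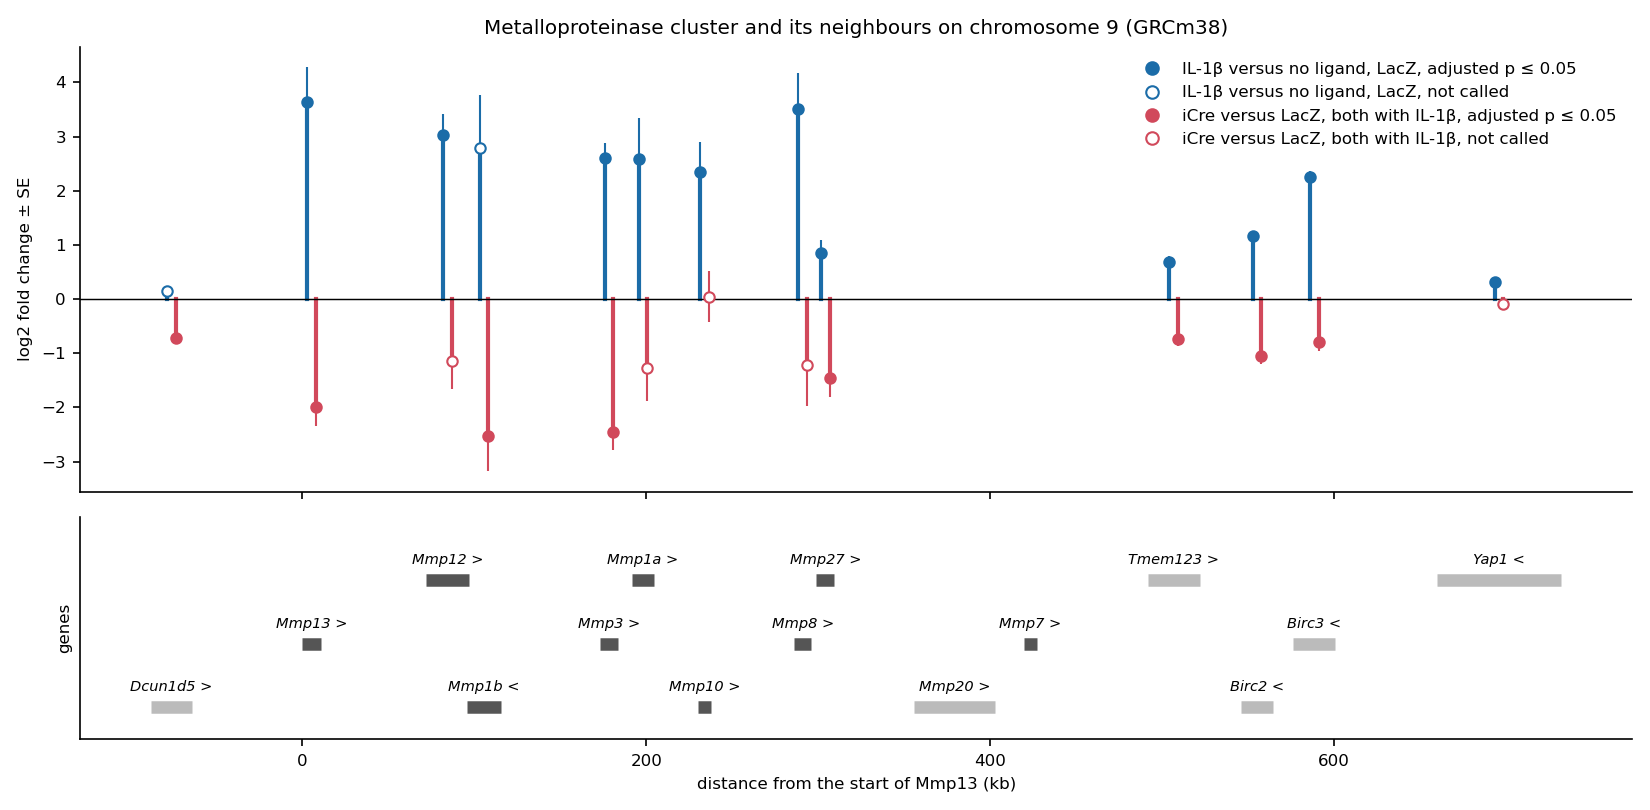
Log2 fold changes with standard errors along the cluster and its neighbours, against the distance from the start of *Mmp13* in kb (GRCm38), for IL-1β against no ligand in LacZ fibroblasts (blue) and for iCre against LacZ, both with IL-1β (red). Filled points passed an adjusted p of 0.05, dark bars are cluster members, pale bars neighbours, and arrows give the strand. The blue points of 7 members are filled and above 0, and so is that of *Birc3* beyond the far end.

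Genes that activate or inhibit secreted metalloproteinases moved in both directions. Of 14 listed, 13 were tested, and with IL-1β in LacZ fibroblasts 4 rose and 3 fell, against 11.1% and 9.55% of all genes, with a median log2 fold change of −0.10. With the block 6 rose, with *A2m* and *Mmp14* added, and 6 fell, with *Mmp2*, *Plat* and *Timp2* added, against 16.3% and 17.3% of all genes. *Timp1*, a tissue inhibitor of these enzymes, rose from 561 ± 109 to 3210 ± 1342 CPM, by 2.53 (adjusted p = 0.000423). *Timp3* fell from 1645 ± 977 to 359.7 ± 209.8 CPM, by 2.19 (adjusted p = 0.0141). *Plaur*, the urokinase receptor gene, and *Mmp9* (gelatinase B) rose by 1.94 and 2.52. With TNFα, *Timp1*, *Plaur* and *Mmp9* were higher in iCre than in LacZ, by 1.11, 2.76 and 1.65 (adjusted p = 0.00789, 0.000596 and 0.000624), among 5 genes of the list that were higher, against 14.8% of all genes, and 1 that was lower, against 12.6%. With the block 7 were higher and 2 lower, against 17.1% and 15.1%.

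Of 21 transcription factor genes of the AP-1, ETS, C/EBP, NF-κB and RUNX families, 14 rose and none fell with IL-1β in LacZ fibroblasts, against 11.1% and 9.55% of all genes. With TNFα 12 rose and none fell, against 10.9% and 10.4%. With the block 16 rose and 2 fell with IL-1β, against 16.3% and 17.3% of all genes, and 15 rose and 2 fell with TNFα, against 17.2% and 18.4%. The 2 that fell were *Fos* and *Fosb*, both subunits of AP-1: *Fos* by −0.79 with IL-1β (adjusted p = 2.44e-05) and −1.35 with TNFα (adjusted p = 4.59e-07), and *Fosb* by −0.41 (adjusted p = 0.0278) and −0.89 (adjusted p = 7.4e-05) on the log2 scale. The median log2 fold changes were 0.87 and 0.67, against −0.10 and −0.08 for all genes. *Batf*, *Runx1* and *Fosl1*, a subunit of AP-1, rose by 4.02, 2.28 and 2.19 with IL-1β. With TAK1 deletion the list split. With IL-1β 6 were higher and 5 lower in iCre, against 7.14% and 8.98% of all genes, and with TNFα 7 were higher and 5 lower, against 14.8% and 12.6%. With the block 8 were higher and 7 lower with IL-1β, against 14.6% and 14.9%, and 8 and 5 with TNFα, against 17.1% and 15.1%. *Fosl1* was higher in iCre, by 1.18 with IL-1β (adjusted p = 0.00815) and 2.73 with TNFα (adjusted p = 0.000342), whereas *Relb*, a subunit of NF-κB, was lower, by −0.58 (adjusted p = 0.0174) and −1.07 (adjusted p = 0.000248).

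The genes most like each member across the 40 libraries were found by Pearson's r of log2(CPM + 0.5) among 13089 tested genes whose mean CPM was 1 or more. The 40 libraries share groups and replicate numbers and are not independent points, so r is a description. *Mmp3* was most like *Cp* (0.91), *Tmem176a* (0.91) and *Tnfsf13b* (0.87), and *Mmp27* most like *Cd302* (0.91), *Irak3* (0.91) and *Lgi2* (0.90). *Mmp13* was most like *Tnfrsf9* (0.84), *Srxn1* (0.82) and *Serpinb2* (0.79), and *Mmp12* shared *Srxn1* (0.77) and *Serpinb2* (0.77) with it. *Mmp8* was most like *Acat3* (0.85), *Cyp7b1* (0.83) and *Steap4* (0.83), and *Mmp10* like *Rgs16* (0.80). Between members, r was highest for *Mmp3* with *Mmp27* (0.81) and *Mmp8* (0.73) and lowest for *Mmp10* with *Mmp27* (−0.05).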

How the data were processed

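Per the labels, RNA from 40 cultures was sequenced and the reads were aligned with STAR to mm10, with quality checks in FastQC 0.10.1 and counting in HTSeq 0.10.0. The deposited values were raw counts per Ensembl gene, made by the authors, one column per library. The annotation release, the strand setting and the treatment of reads matching several genes are not given in the sources used here. Library totals lay between 25360947 and 66160732 counts. Of 55414 genes, 52133 had a symbol in GENCODE M21, 22066 were at 0 everywhere and 8138 others were under 10 counts.

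The remaining 25210 genes were tested with edgeR 4.0.16 in R 4.3.3 (TMM scaling, quasi-likelihood test, Benjamini-Hochberg adjustment over all genes, threshold 0.05), on the libraries of the compared groups only, and interactions on 16 libraries. Levels are CPM with TMM scaling over 40 libraries. Samples were grouped by their labels, and p-values measure the spread between samples as labelled. Same-numbered libraries deviated together from their group means: over 13090 genes, r lay between 0.33 and 0.86 in 56 pairs, so the replicate number was taken to pair the samples, and blocked values are given where they changed a call of a member, and blocked counts for the other lists. Fits that left out a replicate number had no block, so a call lost there was lost in a fit without the pairing.

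Alternatives were DESeq2 1.42.0, RLE scaling, filterByExpr, no filter, the replicate block alone and with a GC correction (24970 genes, spline with 5 degrees of freedom), 1 fit of all 40 libraries, and leaving out each replicate. Leaving out replicate 2 of iCre with TNFα was added after seeing the data. Members and gene lists were chosen with earlier results of these data known. Named genes were the members, then for each list up to 6 genes with the largest change among those that passed the test with IL-1β in LacZ fibroblasts, and the genes most like a member, with *Dcun1d5* chosen after its values were seen. Outside that rule, *Fos*, *Fosb*, *Dync2h1*, *A2m*, *Mmp14*, *Mmp2*, *Plat* and *Timp2* were named because only the blocked fit called them. *Mmp20* was named for its place in the cluster. The values of 1 listed gene are not reported here. Figures were drawn with matplotlib 3.10.9. The statistical scripts were tested on simulated data.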

Additional observations from a re-analysis of the deposited data

Results flagged for a closer look

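In 79 groups of 4 libraries, the gap between an end library and the next one was compared with the range of the group by Dixon's test, and 13 libraries stood apart. About 1 in 20 groups would do so by chance if the values were normally distributed and the groups independent. Here the CPM were not on a log scale, the groups share replicate numbers, and all 13 libraries were the highest of their group. That rate is therefore not the one expected for these data.

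*Mmp8* stood apart in replicate 2 of 6 groups. It was at 2.39 CPM in LacZ without ligand (next library 0.558), 6.82 CPM in LacZ with TNFα (1.52), 2.03 CPM in iCre with bFGF (0.4), 1.07 CPM in iCre with TGFβ (0.265), 13 CPM in iCre with IL-1β (3.16) and 12.3 CPM in iCre with TNFα (0.661). *Mmp10* stood apart in replicate 2 of iCre with IL-1β, at 5.29 CPM (1.79), and with TNFα, at 68.5 CPM (3.34). *Mmp1b* was high in the same TNFα library, at 1.78 CPM (0.486), and in replicate 4 of iCre with IL-1β, at 0.375 CPM (0.145). *Mmp1a* reached 8.41 CPM in replicate 4 of iCre with bFGF (1.37), *Mmp12* 6.14 CPM in replicate 4 of LacZ with TNFα (2.32) and *Mmp27* 0.908 CPM in replicate 3 of LacZ with TGFβ (0.455).

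The effect of IL-1β differed between LacZ and iCre fibroblasts for *Mmp3*, by −1.74 on the log2 scale, and for *Mmp13*, by −2.98, in edgeR's interaction test.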

How the results depend on the processing

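The replicate block moved the number of members called in 10 of 18 comparisons. With the block it was 4 in place of 1 for bFGF and 6 in place of 2 for TNFα in LacZ fibroblasts, 4 in place of 2 for bFGF, 5 in place of 3 for IL-1β and 6 in place of 3 for TNFα in iCre fibroblasts. Between the viruses it was 3, 4 and 1 in place of 0 without ligand, with bFGF and with TGFβ. It was 5 in place of 2 for the interaction of IL-1β and 6 in place of 2 for IL-1β against TNFα. With the block and GC correction the counts were 5, 6, 4, 5 and 5 for the ligand comparisons in that order, 4, 4 and 2 between the viruses in that order, 5 in place of 3 with TNFα, 3 for the interaction of IL-1β and 6 for IL-1β against TNFα. DESeq2 called 3 for bFGF in LacZ, 1, 3 and 1 between the viruses without ligand, with bFGF and with TGFβ, and 4 for IL-1β against TNFα, among members with an adjusted p in it. With filterByExpr 3 were called for bFGF in LacZ and 1 for TNFα in iCre. For bFGF in iCre RLE scaling called 0 and no filter 1. One fit of all 40 libraries called 2 for bFGF in LacZ, 0 for IL-1β in iCre, 1 for the interaction of TNFα and 1 for IL-1β against TNFα. The cause was not tested.

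Leaving out each replicate in turn gave 0 to 3 calls for bFGF, 4 to 7 for IL-1β and 1 to 4 for TNFα in LacZ, and 0 to 3 for bFGF, 0 to 2 for IL-1β and 1 to 3 for TNFα in iCre. Between the viruses it gave 0 to 1 with TGFβ, 2 to 5 with IL-1β and 0 to 5 with TNFα, and it gave 0 to 2 for the interaction of IL-1β, 0 to 1 for that of TNFα and 0 to 5 for IL-1β against TNFα. The calls past the threshold in all 4 of these fits were *Mmp3*, *Mmp8*, *Mmp12* and *Mmp13* with IL-1β and *Mmp3* with TNFα in LacZ, *Mmp10* with TNFα in iCre, *Mmp3* and *Mmp27* with TGFβ in both, and *Mmp3* and *Mmp13* between the viruses with IL-1β.

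Without replicate 2 of iCre with TNFα, 1 member was called for TNFα in iCre, 5 between the viruses with TNFα (5 with the block) and 1 for the interaction of TNFα (3 with the block). *Mmp8* changed sign. Its difference between the viruses with TNFα, 0.32, became −1.07 with the block, −0.80 with the block and GC correction, −1.96 without replicate 2, −2.94 without the 1 library and −2.07 without it and with the block. Its interaction of TNFα, 0.69, became −0.47, −0.26, −1.89, −2.56 and −1.84 in that order. Leaving out each replicate in turn, the first ranged from −1.96 to 0.52 and the second from −1.89 to 0.96. The change of *Mmp8* with TNFα within iCre, 2.20, became −0.40 without replicate 2 and −1.07 without the 1 library. That of *Mmp3*, 0.89, became −0.01 without this library. *Mmp10* between the viruses with IL-1β, 0.04, became −0.21 with the block and −0.12 with the block and GC correction and ranged from −0.80 to 0.32 without 1 replicate, its interaction of IL-1β ranged from −1.69 to 0.17, and *Mmp1b* for IL-1β against TNFα, −0.26, from −0.51 to 0.03. *Mmp1a* and *Mmp1b* had few counts, which limits their precision.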
